A study of Mus musculus with 4 samples.

Results

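The BCL2 family genes were followed between pre-ALT and post-ALT mouse embryonic stem cells (ALT, the alternative lengthening of telomeres without telomerase). The members were the 10 family genes *Bcl2*, *Bcl2l1*, *Bcl2l2*, *Mcl1*, *Bak1*, *Bid*, *Bad*, *Bik*, *Bmf* and *Bcl2l11*, matched by symbol among the 53379 genes of the deposited tables. RNA came from the line DKO741, in which both *Terc* alleles (the telomerase RNA component) of E14 cells had been replaced with the targeting construct TR-10 and the neo cassette of the first allele removed by Cre adenovirus. It was taken at population doubling 100 (PD100, pre-ALT) and at population doubling 800 (PD800, post-ALT survivors), with 2 biological replicate libraries of each; the labels also give these numbers as passages. Every library therefore carried the knock-out and came from 1 line, and no library of Terc+/+ cells was analysed here, so the time in culture and the ALT state cannot be told apart. Lines were kept on feeder fibroblasts and grown feeder-free for RNA extraction.

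BCL2 family proteins decide at the outer mitochondrial membrane whether a cell releases cytochrome c and activates caspases. Pro-survival proteins (BCL2, BCL-XL from *Bcl2l1*, BCL-W from *Bcl2l2* and MCL1) hold in check the effectors BAK and BAX, which permeabilise the membrane when freed. BH3-only proteins (BID, BAD, BIK, BMF and BIM from *Bcl2l11*) sense stress and bind the pro-survival proteins, and some of them also activate the effectors directly. Embryonic stem cells are known to die readily after DNA damage.

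Of the 10 genes, 4 passed the test described below with a change of more than 2-fold, beside 15.1% of all genes tested. The promoter windows of these 4 genes are shown here. *Bcl2l11* (chromosome 2), *Bcl2l1* (chromosome 2) and *Bcl2* (chromosome 1) fell and *Bmf* (chromosome 2) rose. The windows are those of RefSeq on GRCm38.p6, from 250 bases before to 50 bases after the outermost annotated start of each gene, written 5′ to 3′ on the strand of the gene, with matches to the searched motifs in capitals. They lie at chr2:128125788-128126087 on the plus strand for *Bcl2l11*, and on the minus strand at chr2:118549637-118549936 for *Bmf*, chr2:152831679-152831978 for *Bcl2l1* and chr1:106714241-106714540 for *Bcl2*.
Bcl2l11: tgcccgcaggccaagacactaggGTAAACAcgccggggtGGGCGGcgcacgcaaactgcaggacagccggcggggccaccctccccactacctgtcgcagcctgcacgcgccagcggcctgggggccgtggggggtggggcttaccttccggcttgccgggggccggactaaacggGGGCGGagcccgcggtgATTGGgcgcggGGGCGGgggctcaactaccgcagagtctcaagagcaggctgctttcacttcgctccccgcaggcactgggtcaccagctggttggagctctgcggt
Bmf: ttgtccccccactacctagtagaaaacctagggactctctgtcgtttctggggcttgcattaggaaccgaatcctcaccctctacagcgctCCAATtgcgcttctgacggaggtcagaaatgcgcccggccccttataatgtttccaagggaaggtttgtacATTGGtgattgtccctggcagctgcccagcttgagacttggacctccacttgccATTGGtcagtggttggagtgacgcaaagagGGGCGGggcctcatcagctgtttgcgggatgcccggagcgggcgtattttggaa
Bcl2l1: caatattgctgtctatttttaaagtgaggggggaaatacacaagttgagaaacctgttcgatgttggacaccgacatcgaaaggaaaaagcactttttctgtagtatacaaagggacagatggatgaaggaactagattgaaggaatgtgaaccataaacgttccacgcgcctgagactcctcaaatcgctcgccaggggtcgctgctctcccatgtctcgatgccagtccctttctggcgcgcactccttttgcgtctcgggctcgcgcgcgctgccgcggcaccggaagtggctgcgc
Bcl2: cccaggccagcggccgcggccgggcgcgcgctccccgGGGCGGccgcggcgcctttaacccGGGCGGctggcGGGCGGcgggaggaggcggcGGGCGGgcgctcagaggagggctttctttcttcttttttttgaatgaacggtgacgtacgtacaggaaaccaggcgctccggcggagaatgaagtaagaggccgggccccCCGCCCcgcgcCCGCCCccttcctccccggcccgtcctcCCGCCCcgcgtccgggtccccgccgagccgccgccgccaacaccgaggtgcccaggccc

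The motifs were searched as exact letters on both strands and included the GC box GGGCGG, the forkhead sequence TGTTTAC, the E-box CACGTG, the cAMP response element TGACGTCA, the CCAAT box CCAAT and the TATA box TATAAA. No match overlapped another in the 4 windows. The *Bcl2l11* window held 1 forkhead match on the minus strand at position -227 from the start, 3 GC boxes and 1 CCAAT box. A forkhead match was found in 3.65% of all 32851 windows of this length, a GC box in 35.7% and a CCAAT box in 37.4%. The *Bmf* window held 3 CCAAT boxes and 1 GC box, and the *Bcl2* window held 7 GC boxes at a GC content of 76.0%, against a median of 52.7% over all windows. None of the 6 motifs matched in the *Bcl2l1* window. RefSeq gives other starts for some genes: the second *Bcl2l11* window held 0 forkhead matches, 3 GC boxes and 2 CCAAT boxes, the other two *Bmf* windows held 1 and 0 CCAAT boxes and no GC box, and the other two *Bcl2l1* windows held no match. GC boxes also stood in the outermost windows of other members: 4 in *Bad*, 3 in *Bid*, 1 each in *Bcl2l2* and *Mcl1* and 0 in *Bak1*. The GC content of these windows was 58.3% to 65.7%. Windows were found for 9 of the 10 genes, and matches describe letters only.

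The total expected count (the number of read pairs that RSEM assigns to genes, dividing pairs that align to several) was between 32454121 and 38492149 per library. Levels are given as CPM, read counts scaled to a common library total with TMM factors, in which a floor of 3 counts lay between 0.0743 and 0.0933 CPM and covers counting error only. Mitochondrially encoded genes took 11.0% to 15.4% of counts in PD100 and 16.0% to 17.7% in PD800, and the PD100 replicates were less alike (correlation of log2 CPM across genes 0.984) than those of PD800 (0.992). *Terc*, the targeted gene, had 1 count in PD100 replicate 1 and 0 in the other 3 libraries. All 10 embryonic stem cell markers were above the floor in every library, and their summed level was 2121 to 2423 CPM in PD100 and 4080 to 4185 CPM in PD800. Of these 10 markers, 6 passed the test as higher and 0 as lower. Markers of other cell types also moved with the groups. The 10 primitive endoderm markers summed to 2364 to 2610 CPM in PD100 and to 239 to 249.95 CPM in PD800, and 10 of 10 passed the test as lower. Of these, *Foxa2* did not exceed the floor in either PD800 library. Most of the PD100 sum came from *Col4a1*, *Lama1* and *Sparc* (means of 1147, 636 and 568 CPM). The next highest of these markers, *Pdgfra*, had a PD100 mean of 31.9 CPM. The 10 feeder fibroblast markers summed to 52.2 to 74.6 CPM and to 15.8 to 16.6 CPM, with 5 of 9 tested markers lower and *Lum* at or under the floor throughout. The part of these markers in the differences below was not tested, and in bulk RNA fewer cells of a type and less RNA per cell cannot be told apart.

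At PD800, 2 genes of the family were higher and 3 lower, and 5 did not pass the test. A gene passed at an adjusted p under 0.01 in the quasi-likelihood test of edgeR, adjusted after Benjamini and Hochberg over the 19148 genes tested, and all 10 members were among these. Of all genes tested, 13.1% passed as higher and 15.4% as lower, so that the family's 5 of 10 stood beside 28.5% of all genes in either direction. With a fold change over 2 required as well, 1 member was higher and 3 were lower, beside 6.28% and 8.81% of all genes. The median log2 fold change of the 10 genes was -0.26, and that of all genes tested was 0.01. The CPM values of the groups did not overlap for any of the 10 genes, with 3 higher and 7 lower, beside 37.4% and 36.3% of all genes tested (73.7% in either direction). An exact permutation test of 2 libraries against 2 cannot give a p below 0.333. The calls therefore rest on the spread that edgeR shares across genes. Leaving out PD800 replicate 1 or 2 left 3 and 4 members called (2655 and 2779 of all genes), and leaving out PD100 replicate 1 or 2 gave 5 and 7 members (8173 and 7782 of all genes).

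**Figure D1:**
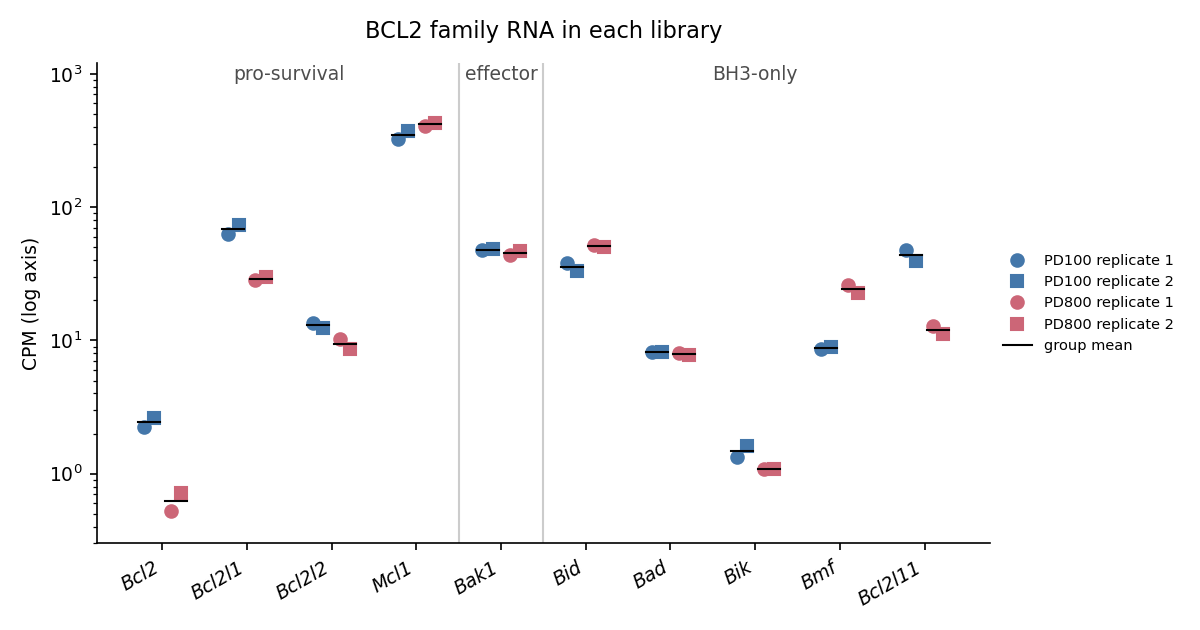
RNA level of the 10 BCL2 family genes in each library, in CPM on a log axis, with PD100 in blue, PD800 in red, circles for replicate 1, squares for replicate 2 and black lines for group means. *Bcl2l11*, *Bcl2l1* and *Bcl2* sit lower and *Bmf* higher at PD800, while *Bak1* and *Bad* differ least.

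Among the pro-survival genes, *Bcl2l1* fell and *Mcl1* did not pass the test. *Bcl2l1*, whose long product BCL-XL protects cells and whose short splice product promotes death, was at 63.3 and 73.3 CPM at PD100 and at 28.4 and 29.7 CPM at PD800. Both PD100 libraries lay above both PD800 libraries by more than the distance between replicates. The level was 2.35-fold lower at PD800 (log2 fold change -1.23, standard error 0.10, edgeR adjusted p = 0.000308). Counts were made per gene, so the long and short products were not separated. The gene lies on chromosome 2 from 152780668 to 152831728 (GENCODE M21, GRCm38).

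*Mcl1* (chromosome 3, 95658788 to 95663176) encodes a short-lived protein that restrains BAK and BIM. It was at 327 and 373 CPM at PD100 and at 405 and 428 CPM at PD800. The log2 fold change was 0.25 with a 95% interval from 0.02 to 0.49, and the edgeR adjusted p of 0.0763 did not pass. With each library left out singly, the log2 fold change ranged from 0.16 (without PD100 replicate 1) to 0.33 (without PD100 replicate 2), and only the latter passed. In TPM, which RSEM divides by an estimated transcript length, *Mcl1* was at 78.4 and 90.5 in PD100 and at 80.2 and 80.01 in PD800, and the direction turned. On log2(TPM + 1) its log2 fold change was -0.07, beside a median of -0.12 over all genes on that scale. The mean *Mcl1* transcript length that RSEM estimated was 3408 bases in PD100 replicate 1, 3050 bases in PD100 replicate 2 and 3418 bases in both PD800 libraries, so PD100 replicate 2 stood apart in length and in TPM.

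*Bcl2* itself (chromosome 1, 106538178 to 106714274), the founding member of the family, was at a low level. Its counts were 91 and 87 at PD100 and 19 and 23 at PD800, or 2.25, 2.60, 0.528 and 0.715 CPM. All 4 values were above the floor, and the PD800 values were 3.90-fold lower (log2 fold change -1.96, standard error 0.25, edgeR adjusted p = 0.00171). Without PD800 replicate 1 the log2 fold change was -1.76 and no longer passed, and without PD800 replicate 2 it was -2.19. *Bcl2l2* (chromosome 14, 54883377 to 54888234), which encodes BCL-W, was at 13.6 and 12.5 CPM in PD100 and at 10.3 and 8.56 CPM in PD800. Its log2 fold change of -0.47 (95% interval -0.77 to -0.17) had an edgeR adjusted p of 0.0243. Without PD100 replicate 2 *Bcl2l2* was at -0.55 and passed, and without PD800 replicate 2 it was at -0.34 and did not pass. Its exons share 13.3% of their bases with *Gm20521*, a gene on the same strand with 17.8 to 46.6 counts per library, so how reads were split between the pair is uncertain.

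The effector gene *Bak1*, which encodes BAK, did not pass the test. *Bak1* (chromosome 17, 27019810 to 27029009) was at 47.6 and 48.4 CPM at PD100 and at 43.9 and 47.1 CPM at PD800. The log2 fold change was -0.08 with a 95% interval from -0.27 to 0.11 (edgeR adjusted p = 0.459). The gap between the groups at their nearest values was smaller than that between the PD800 replicates. In TPM the groups lay further apart, at 18.6 and 18.3 in PD100 and at 14.6 and 14.8 in PD800, and log2(TPM + 1) gave a log2 fold change of -0.31 that also did not pass (limma adjusted p = 0.0418), beside a median of -0.12 over all genes on that scale.

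The BH3-only genes moved in both directions, with 2 higher, 1 lower and 2 that did not pass. *Bcl2l11* encodes BIM, which binds every pro-survival protein of the family and can activate BAX and BAK. It was at 47.97 and 39.3 CPM at PD100 and at 12.8 and 11.2 CPM at PD800. The lowest PD100 value was well above the highest PD800 value, although the PD100 replicates differed by more than those of PD800. The level was 3.64-fold lower at PD800 (log2 fold change -1.86, standard error 0.13, edgeR adjusted p = 0.000203), and only 4.85% of all genes tested had a lower log2 fold change. The gene lies on chromosome 2 from 128126038 to 128162547, and the counts cover all its splice forms together.

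*Bmf*, whose product is held at the actin cytoskeleton and released when cells lose attachment, was at 8.56 and 8.86 CPM at PD100 and at 25.8 and 22.7 CPM at PD800. The groups were far apart relative to either pair of replicates. The level was 2.78-fold higher at PD800 (log2 fold change 1.48, standard error 0.10, edgeR adjusted p = 0.000199). *Bmf* lies on chromosome 2 from 118528757 to 118549687. *Bid* links death receptors to mitochondria once caspase-8 has cleaved its product. It was at 37.97 and 33.0 CPM in PD100 and at 52.3 and 50.4 CPM in PD800, a 1.45-fold rise (log2 fold change 0.53, standard error 0.09, edgeR adjusted p = 0.00569). Without PD800 replicate 1 the log2 fold change was 0.50, and without PD800 replicate 2 it was 0.56. The call was lost in both fits, in which calls over all genes also fell. In TPM, *Bid* was at 16.3 and 13.6 in PD100 and at 17.4 and 16.3 in PD800. On log2(TPM + 1) *Bid* did not pass (log2 fold change 0.17, limma adjusted p = 0.313), beside a median of -0.12 over all genes on that scale. *Bid* (chromosome 6, 120891930 to 120916853) shares 17.7% of its exon bases with *Bcl2l13* on the opposite strand, and the strand setting of the counting is not given in the sources used here.

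*Bad* and *Bik* did not pass. *Bad* (chromosome 19, 6941861 to 6951899), whose product is inactivated by survival kinases, was at 8.19 and 8.21 CPM in PD100 and at 8.01 and 7.76 CPM in PD800. Its log2 fold change was -0.05 with a 95% interval from -0.30 to 0.19 (edgeR adjusted p = 0.693). *Bik* (chromosome 15, 83526862 to 83544634), which encodes a BH3-only protein found largely at the endoplasmic reticulum, had 54 counts in each PD100 library and 39 and 35 at PD800. Its log2 fold change of -0.44 had a wide interval, from -0.998 to 0.12 (edgeR adjusted p = 0.170). Exons of *Bak1* and *Bad* also share 18.2% and 20.5% of their bases with genes on the opposite strand.

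**Figure D2:**
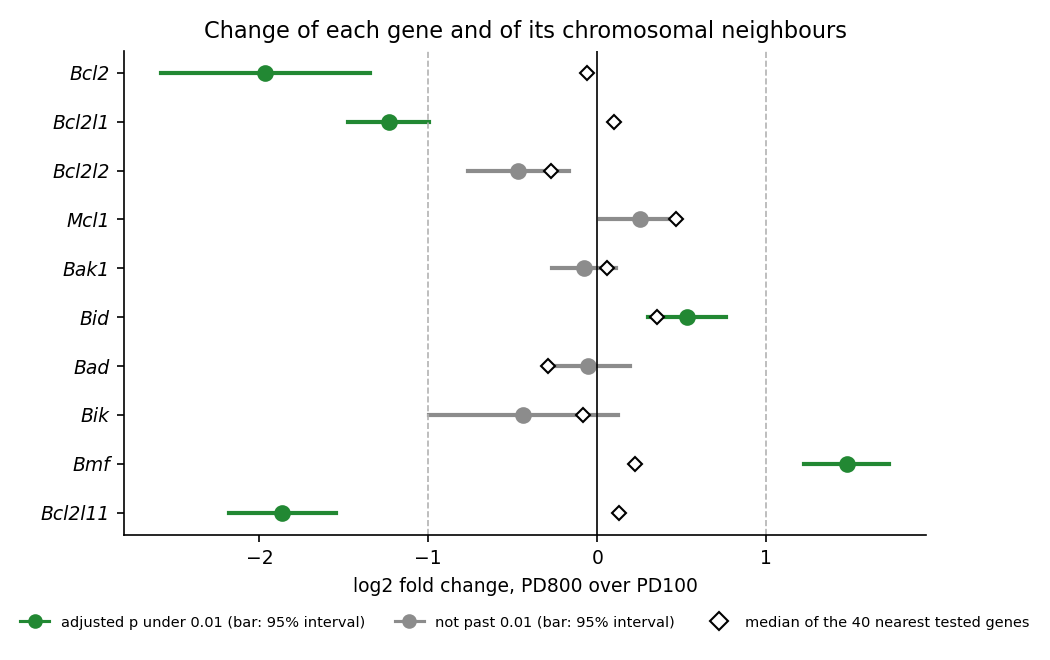
Difference between PD800 and PD100 as log2 fold change for the 10 genes (circles, with 95% intervals as bars, green where the adjusted p was under 0.01) and the median log2 fold change of the 40 nearest tested genes on the same chromosome (open diamonds). Dashed lines mark 2-fold changes. The circles of *Bcl2*, *Bcl2l1*, *Bcl2l11* and *Bmf* lie farther from their diamonds than those of the other 6 genes.

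Since copy-number changes are described in these cells, each gene was set beside its neighbours on the chromosome, as a description with no test. For the 4 genes that changed more than 2-fold, the neighbours did not share the difference. The median log2 fold change of the 40 nearest tested genes was -0.06 around *Bcl2*, 0.10 around *Bcl2l1*, 0.13 around *Bcl2l11* and 0.22 around *Bmf*. After that median was taken off, the 4 genes stood at -1.91, -1.33, -1.99 and 1.25. The neighbours of *Bcl2* were spread over a 23.3 Mb window, and those of the other three over 1.63 to 2.19 Mb. Of the 40 neighbours, 1 had a lower value than *Bcl2*, 4 than *Bcl2l1* and 5 than *Bcl2l11*, and 2 had a higher value than *Bmf*. *Bmf*, *Bcl2l11* and *Bcl2l1* lie on the same chromosome, between 29.2 and 63.5 Mb from its last annotated base, and went in different directions.

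For the other 6 genes, the difference from the neighbours was smaller. The 40 genes nearest to *Mcl1* had a median of 0.47, above the 0.25 of *Mcl1*, and 10 of them passed as higher and 2 as lower. Around *Bid* the median was 0.35, beside the 0.53 of *Bid*. Around *Bcl2l2* it was -0.28, beside -0.47. *Bak1* and *Bad*, themselves at -0.08 and -0.05, had neighbours at 0.06 and -0.29, and *Bik*, at -0.44, had neighbours at -0.09.

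Levels of different genes were compared in TPM, which is scaled for length. In PD100 cells the order of mean levels was *Mcl1* (84.5 TPM), *Bcl2l1* (24.3), *Bak1* (18.4), *Bid* (14.95), *Bcl2l11* (10.1), *Bad* (7.26), *Bcl2l2* (4.27), *Bmf* (1.70), *Bik* (1.39) and *Bcl2* (0.330), and the 2 libraries of neighbours in this order did not overlap. In PD800 cells it was *Mcl1* (80.1 TPM), *Bid* (16.9), *Bak1* (14.7), *Bcl2l1* (8.63), *Bad* (5.895), *Bmf* (4.28), *Bcl2l2* and *Bcl2l11* (2.42 each), *Bik* (0.870) and *Bcl2* (0.0900). There, *Bcl2l2* (1.92 and 2.92 TPM) and *Bcl2l11* (2.19 and 2.65 TPM) overlapped and could not be ordered. *Bcl2l1* thus moved from position 2 to position 4, *Bcl2l11* from position 5 to a shared position 7, and *Bmf* from position 8 to position 6.

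Within the pro-survival genes, *Mcl1* took a larger part of the RNA at PD800. Its share of the summed TPM of the 4 genes was 72.3% and 76.5% at PD100 and 87.1% and 88.5% at PD800. The share of *Bcl2l1* was 22.7% and 20.3% in PD100 and 9.60% and 9.31% in PD800, and *Bcl2* stayed under 1%. The sum itself was 108 and 118 TPM in PD100 and 92.0 and 90.5 TPM in PD800. No direction is read from this sum, since *Mcl1*, its largest part, turned between TPM and CPM and the median of all genes was at -0.12 on log2(TPM + 1). Shares within a library do not depend on its scaling, but they do depend on the lengths that RSEM estimated.

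Within the BH3-only genes, *Bid* had the largest share of the RNA in each library, 41.8% and 42.9% in PD100 and 55.2% and 56.1% in PD800. *Bcl2l11* went from 30.4% and 26.1% to 8.39% and 7.53%, and *Bmf* from 4.68% and 4.97% to 14.0% and 14.2%. The summed TPM of the 5 genes was 38.9 and 31.8 in PD100 and 31.6 and 29.1 in PD800. The ratio of this sum to that of the pro-survival genes was 0.359 and 0.269 in PD100 and 0.343 and 0.322 in PD800, so the PD800 values lay between the PD100 values. These are ratios of RNA, and protein levels were not analysed here.

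**Figure D3:**
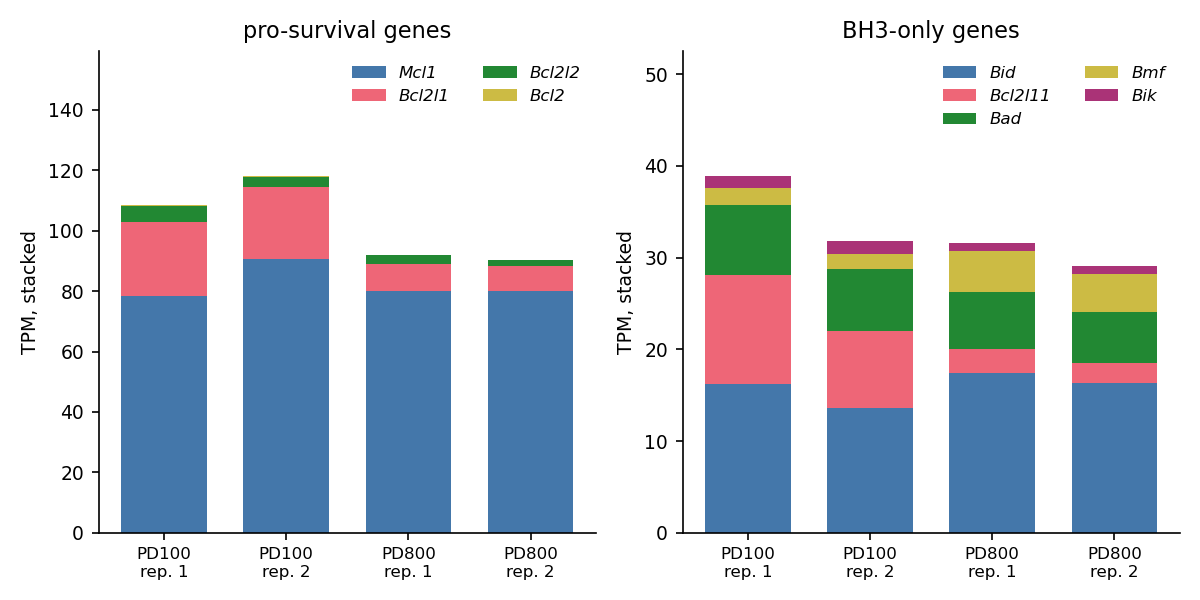
Stacked TPM of the 4 pro-survival genes (left) and the 5 BH3-only genes (right) in each of the 4 libraries, from a common zero. The *Mcl1* segment fills 87.1% and 88.5% of the pro-survival bar at PD800, the *Bcl2l11* segment shrinks to 8.39% and 7.53% of the BH3-only bar, and the *Bmf* segment widens to 14.0% and 14.2%.

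The other genes of the family and the steps around it were read from lists of 65 genes in all, of which 59 had enough counts for the test. At PD800, 6 of these were higher and 13 lower, or 32.2% called beside 28.5% of all genes tested, with a median log2 fold change of -0.11. Without PD800 replicate 1 there were 2 higher and 5 lower genes, without PD800 replicate 2 there were 3 and 7, without PD100 replicate 1 there were 10 higher and 20 lower, and without PD100 replicate 2 there were 9 and 19.

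Among 15 other genes of the BCL2 family, 10 were tested, and 2 were higher and 2 lower (40% called, beside 28.5% of all genes). *Bok*, a BAX-like effector, fell from 13.8 ± 1.83 CPM (SD, n = 2) to 5.99 ± 0.252 CPM, a log2 fold change of -1.20 (edgeR adjusted p = 0.000857). *Bbc3*, the p53-induced BH3-only gene that encodes PUMA, fell by 0.53 on the log2 scale (adjusted p = 0.00743). *Bcl2l14* rose by 1.09 (adjusted p = 0.00185) and *Bnip3*, a hypoxia-induced gene for a mitophagy receptor, by 0.92 (adjusted p = 0.000981), by edgeR. *Bax*, the main partner of *Bak1*, was at 88.6 ± 16.0 CPM in PD100 and 107 ± 8.41 CPM in PD800 (SD, n = 2) and did not pass (log2 fold change 0.28, edgeR adjusted p = 0.147). It was named for its role beside *Bak1* after its values were seen.

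Downstream of the mitochondria, 14 of 14 genes for the apoptosome, caspases and released factors were tested. Of these, 2 were higher and 3 lower (35.7% called, beside 28.5% of all genes). *Apaf1*, the scaffold of the apoptosome, rose from 82.6 ± 0.545 CPM to 141 ± 1.32 CPM (SD, n = 2; log2 fold change 0.77, edgeR adjusted p = 0.000492), and *Diablo*, an antagonist of caspase inhibitors, rose by 0.56 (adjusted p = 0.00362). *Casp8*, the initiator caspase that cleaves BID, fell from 9.76 ± 0.332 CPM to 3.59 ± 0.0683 CPM (SD, n = 2; log2 fold change -1.44, edgeR adjusted p = 0.000338). *Endog*, a mitochondrial nuclease, fell by 1.11 (edgeR adjusted p = 0.00372). Of 5 genes for inhibitors of apoptosis, *Birc3* fell by 0.75 (edgeR adjusted p = 0.00644) and 4 did not pass (20% called, beside 28.5% of all genes).

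Among 17 genes whose products anchor, degrade or modify BCL2 family proteins, 2 were higher and 4 lower (35.3% called, beside 28.5% of all genes). *Usp9x*, a deubiquitinase that stabilises MCL1, rose by 0.81 on the log2 scale (adjusted p = 0.000864) and *Fbxw7*, a ubiquitin ligase subunit that targets MCL1 for degradation, rose by 0.61 (edgeR adjusted p = 0.00244). *Pim2* and *Pim1*, kinases that phosphorylate BAD, fell by 1.58 and 0.74 (edgeR adjusted p = 0.000203 and 0.000817). *Vdac3*, a porin of the outer mitochondrial membrane, fell by 0.52 (edgeR adjusted p = 0.00248).

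**Figure D4:**
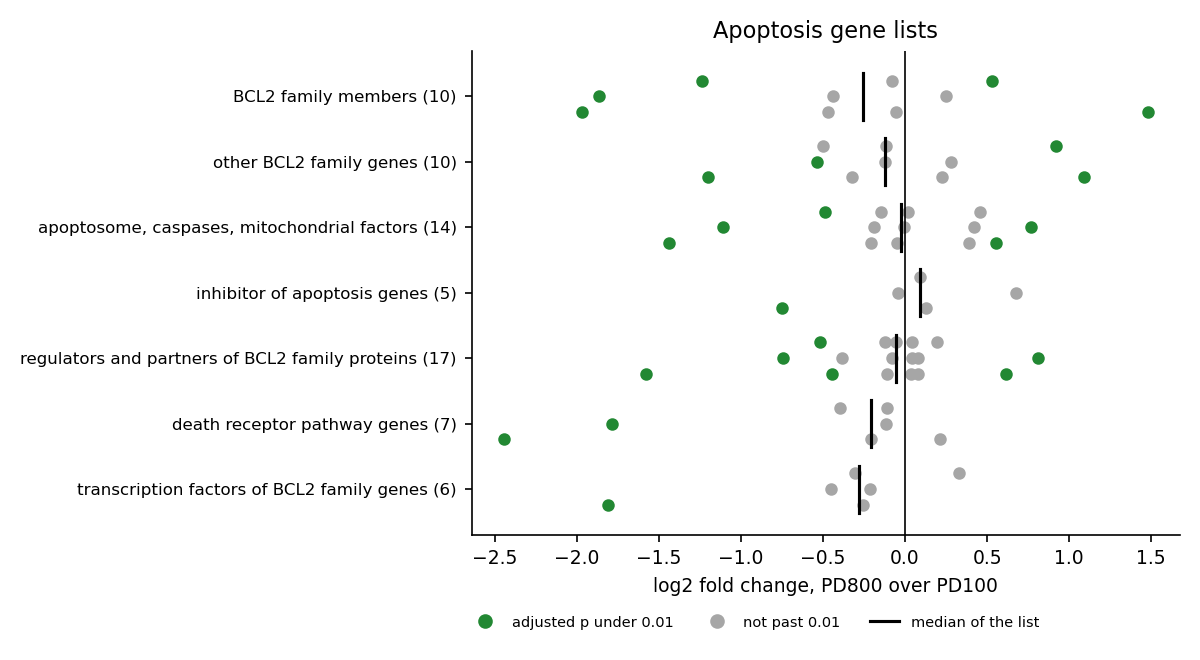
Difference between PD800 and PD100 as log2 fold change for the tested genes of each apoptosis list (number in brackets), with genes past an adjusted p of 0.01 in green, other genes in grey and the median of each list as a black line. The medians lie between -0.28 and 0.09, and called genes stand on both sides of 0 in the BCL2 family, the other family genes, the apoptosome list and the regulators.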

How the data were processed

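RNA of 4 libraries was analysed, 2 at PD100 and 2 at PD800, with groups taken from the sample titles. Per the labels, STAR 2.5.3a and the mm10 build were used by the authors, who deposited, per gene and library, the expected count of RSEM 1.3.0 (not scaled for depth) and its TPM (scaled for length and to one total). The mean transcript length that RSEM lists beside them was also read. Read pairs that align to several genes were divided between them.

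Expected counts were rounded and tested with edgeR 4.0.16 under R 4.3.3 (TMM, filterByExpr at its minimum of 10 counts, quasi-likelihood test, Benjamini-Hochberg adjustment over 19148 genes). Standard errors were taken from the log2 fold change and its F statistic, and TMM factors were 0.960 to 1.05. The procedure was tested on simulated data. Gene coordinates came from GENCODE M21, in which 53274 of 53379 gene IDs were found regardless of version. The annotation release of the files is not given in the sources used here, and 3 of the 10 members carry another ID version there. Alternatives were DESeq2 1.42.0, other normalisations and filters, the replicate number as a block, limma 3.58.1 on log2(TPM + 1) and log2(TPM + 0.1), an adjusted p under 0.05, each library left out, and 20 or 80 neighbouring genes. The named genes were the 10 members, *Terc*, and, in each pathway list, up to 3 called genes with the highest and with the lowest log2 fold change. *Bax*, *Foxo1*, *Foxo3*, *Trp53*, the markers *Foxa2*, *Lum*, *Col4a1*, *Lama1*, *Sparc* and *Pdgfra*, and the overlapping genes *Gm20521* and *Bcl2l13* fall outside this rule. They were named after their values were seen. The members and lists were chosen with earlier results of these data known. FPKM values were not used, and 1 gene that the rule names is not reported here.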

Additional observations from a re-analysis of the deposited data

How the results depend on the processing

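*Bcl2l1*, *Bcl2l11* and *Bmf* kept their direction and passed an adjusted p of 0.01 in all 14 alternatives, with log2 fold changes of -1.48 to -1.15, -2.02 to -1.68 and 0.97 to 1.57 (highest adjusted p 0.00246, 0.00482 and 0.00541). Of 140 values of members under alternatives, 128 kept direction and side, 5 lost and 5 gained the call, and 2 turned: in limma fits *Mcl1* was at -0.072 for log2(TPM + 1) and at -0.073 for log2(TPM + 0.1), while the median of all genes moved from 0.01 to -0.12 and -0.21. *Bid* lost its call with both (adjusted p = 0.313 and 0.312 from limma). In these fits 1 member was higher, and 0 were over 2-fold with log2(TPM + 1). Of all genes, 712 and 706 were then higher (297 and 533 over 2-fold), 920 were lower over 2-fold with log2(TPM + 1), and 1 list gene was higher in each, 0 over 2-fold. The cause was not tested. Without an expression filter 3991 genes were higher, and at an adjusted p under 0.05 there were 4224 higher and 4515 lower.

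The replicate numbers do not establish pairing, though same-numbered libraries deviated together (correlation across genes 0.265). With the replicate block 7978 of 19148 genes were called (3853 higher, 4125 lower), against 5456 without it, and 6 members instead of 5, *Bcl2l2* among them (log2 fold change -0.47, edgeR adjusted p = 0.00284).

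When libraries were left out singly, and the lone library was assumed to vary like the others, 1176 to 3994 genes were higher, 1479 to 4193 lower, 1 to 3 members higher, 2 to 4 lower, 2 to 10 list genes higher, 5 to 20 lower, and 0 to 1 higher over 2-fold. With 20 and 80 neighbours, the medians around *Bcl2l1* were 0.040 and 0.16, around *Bcl2l2* -0.21 and -0.39, around *Bak1* 0.16 and 0.016, around *Bad* -0.33 and -0.33 and around *Bik* -0.17 and -0.19, and with 20 neighbours 0.56 around *Mcl1* and 0.48 around *Bid*. Depth limits *Bcl2* and *Bik*, with 19 to 91 counts per library.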

Other observations

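Upstream of BID, 7 of 8 death receptor pathway genes were tested, with 0 higher and 2 lower in PD800 cells by edgeR's quasi-likelihood test (28.6% called, beside 28.5% of all genes). *Fas*, a death receptor, was at 1.29 ± 0.0948 CPM in PD100 and 0.237 ± 0.0603 CPM in PD800 (SD, n = 2), which is -2.44 ± 0.32 (SE) as log2 fold change (edgeR adjusted p = 0.00172). Depth limits this value, which rests on 55 and 41 counts in PD100 and 7 and 9 counts in PD800. *Tnfrsf10b*, the mouse TRAIL receptor, fell from 38.3 ± 4.33 CPM to 11.1 ± 1.01 CPM (SD, n = 2; log2 fold change -1.78, edgeR adjusted p = 0.000175).

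Of 6 transcription factors known to act on BCL2 family genes, 1 passed (16.7% called, beside 28.5% of all genes). *Myc* fell from 38.9 ± 2.24 CPM to 11.1 ± 0.490 CPM (SD, n = 2; log2 fold change -1.81, edgeR adjusted p = 7.99e-05). The forkhead factors *Foxo1* and *Foxo3*, known activators of *Bcl2l11*, had log2 fold changes of -0.45 and -0.31 that did not pass (edgeR adjusted p = 0.0163 and 0.0169), and *Trp53*, which encodes p53, was at -0.21 (adjusted p = 0.148). These 3 were named after their values were seen.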
